A study of Mus musculus with 10 samples.

Results

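The genes examined were 40 genes of DNA replication and S phase, followed in single cells of the whole cortex of mouse embryos at E16.5. The 40 members were chosen by name, with no measured value in the rule but with earlier results of these data known. All 40 were found among the 31053 genes of the deposited matrices. They fall into 6 roles: licensing and helicase (Mcm2, Mcm4, Mcm5, Mcm6, Cdc6, Gmnn, Cdc45 and Gins2), DNA synthesis (Pola1, Prim1, Pold3, Pcna, Rfc2, Dscc1, Fen1 and Rpa2), nucleotide supply (Tyms, Rrm1 and Rrm2), histones and chromatin (Chaf1b, Nasp, Slbp, Casp8ap2, Uhrf1, Hells, Cdca7 and Atad2), fork protection and repair (Clspn, Tipin, Blm, Brip1, Exo1, Rad51ap1, Ung and Usp1), and cell cycle control and others (Ccne2, E2f8, Dtl, Wdr76 and Ubr7). The study used a gene trap allele of Gatad2b, which encodes a subunit of the NuRD chromatin remodeling complex. The 3 wild-type (WT) embryos had none, the 4 Het embryos were Gatad2b stop/+ and the 3 KO embryos were Gatad2b stop/stop, all of the C57BL/6N-A tm1Brd background, of the same age, and no treatment is given. The trap cassette is intronic and acts in the whole animal, so no Cre or cell type limits it. Each embryo gave 1 library of dissociated cells (10x 3′ chemistry, version 3), and the embryo was the replicate.

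Before a cell copies its genome, Cdc6 and its partners load the Mcm helicase onto origins, and geminin (Gmnn) blocks a second loading once synthesis has begun. Polymerases, the sliding clamp Pcna and its loader then copy the DNA, while histone chaperones and maintenance factors rebuild chromatin behind the fork. Many of these genes are transcribed together at the entry into S phase, under E2F factors, so their RNA marks cycling cells. In the embryonic cortex the cycling cells are radial glia (which express Hes5), intermediate progenitors (Eomes) and, in the adjoining ganglionic eminences, progenitors of inhibitory neurons (Dlx1 and Dlx2), whereas the neurons they make no longer divide.

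The promoters of the members show what they share in sequence. RefSeq promoters (GRCm38.p6, 250 bases before to 50 after the start) were held for 30 of the 40 members. The letters TTTCCCGC, TTTGGCGC, TTTCGCGC or TTTGCCGC, forms of the E2F site, read on either strand and allowed to overlap, occurred in 12 of these 30 promoters (40%). They occurred in 18 of 49 promoters of other replication genes (36.7%), in 1 of 18 of mitosis genes (5.56%) and in 704 of 27025 of all genes (2.60%). The stretches below run 5′ to 3′ along the gene, end upstream of the start that the RefSeq table gives, and carry the matches in capitals. That start can differ from the gene start printed with the values: the Cdc6 and Uhrf1 stretches lie inside the printed gene span, and the Hells stretch crosses its start. Only members with a match upstream of the start are shown. Among these, Mcm6, Mcm5, Cdc6 and Hells were picked because their RNA in KO was called higher in Dlx-positive and lower in Eomes-positive cells (gates defined below). Dtl and Uhrf1 were picked because their RNA was higher in KO cortex as a whole. Prim1, Rpa2, Rad51ap1 and Wdr76 had the same opposite calls and no match. Cdca7, Casp8ap2 and Pola1 had matches upstream and are not shown. A relation between matches and changes was not tested.
Mcm6 (chr1:128359720-128359840, strand minus): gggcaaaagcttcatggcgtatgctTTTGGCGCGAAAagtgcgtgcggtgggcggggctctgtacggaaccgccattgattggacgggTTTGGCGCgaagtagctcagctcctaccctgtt
Mcm5 (chr8:75109331-75109392, strand plus): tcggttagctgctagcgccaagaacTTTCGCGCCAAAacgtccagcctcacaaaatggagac
Cdc6 (chr11:98907988-98908045, strand plus): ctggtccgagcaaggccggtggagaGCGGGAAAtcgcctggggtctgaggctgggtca
Hells (chr19:38930903-38930960, strand plus): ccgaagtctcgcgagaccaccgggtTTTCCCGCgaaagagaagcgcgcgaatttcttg
Dtl (chr1:191575545-191575577, strand minus): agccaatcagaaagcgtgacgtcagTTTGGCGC
Uhrf1 (chr17:56304103-56304160, strand plus): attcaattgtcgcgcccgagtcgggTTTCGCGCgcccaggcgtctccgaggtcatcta
In Mcm6 and Mcm5 the 12 capitals hold a match on each strand that overlap. A match is a run of letters, and binding was not measured here.

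Of 80071 barcodes, 65779 had 1000 or more UMIs with no more than 10% from mitochondrial genes and were kept as cells, 5147 to 8103 per embryo, with 82872641 to 123737385 UMIs per embryo and a median of 10795 to 17078 UMIs per cell. Gatad2b itself had 139, 131 and 133 CPM in WT, 94.2, 89.8, 90.0 and 95.7 CPM in Het and 50.9, 52.8 and 57.3 CPM in KO over all cells (KO vs WT -1.32 and Het vs WT -0.54 on the log2 scale), so the labels fit the RNA. The trap leaves the later exons in place, and 3′ UMIs need not vanish. The libraries carry one of 2 prefixes: WT and Het replicate 4 have one, and KO and Het replicates 1 to 3 have the other, so KO and prefix cannot be told apart except through the Het embryos. Kept cells with over 5% mitochondrial UMIs made up 18.4 to 20.8% in WT, 12.4% in Het replicate 4, 29.1 to 39.0% in the other Het embryos and 27.9 to 34.7% in KO. WT replicate 1 also held choroid plexus: 5 of its markers (Ttr and others) summed to 1778 CPM there, to 108 CPM in WT replicate 2 and to at most 3.2 CPM in every other embryo. Barcodes shared by 2 libraries numbered 4 to 19 (at most 0.325% of the smaller library).

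Cells were sorted into 3 progenitor gates by UMIs: Eomes-positive cells had at least 2 Eomes UMIs and at most 1 Dlx1 or Dlx2 UMI, Hes5-positive cells at least 2 Hes5 UMIs and at most 1 of Eomes and of Dlx, and Dlx-positive cells at least 2 UMIs of Dlx1 and Dlx2 together with 1 or more UMIs of a further progenitor gene and at most 1 Eomes UMI. The 218 cells with 2 or more UMIs of both Eomes and Dlx were left out of the gates. The Eomes gate took 339 to 541 cells per embryo, the Hes5 gate 67 to 152 and the Dlx gate 499 to 578 in WT, 489 to 587 in KO and up to 771 in Het. Dlx-positive cells are of the ganglionic eminence type, and how they came into a cortical dissection was not tested. The gates do not hold progenitors alone: Neurod6, a marker of excitatory neurons, had a UMI in 44.5, 40.9 and 36.9% in WT, 34.0, 24.5, 22.6 and 33.2% in Het and 23.6, 23.7 and 26.9% in KO of Dlx-positive cells. It had a UMI in 84.1 to 94.8% of Eomes-positive cells and in 23.1 to 40.8% of Hes5-positive cells. Of cells that carry 2 or more Neurod6 UMIs, 0.976 to 2.05% passed the Dlx gate and 0.106 to 0.384% the Hes5 gate. The part of free RNA and of mixed droplets in these was not tested. Members were higher in the gates than in neurons (cells with 2 or more Neurod6 UMIs and none of Eomes, Hes5 and Mki67): across WT embryos the median ratio of member CPM in gate to that in neurons was 6.07 in Dlx-positive, 4.76 in Eomes-positive and 6.52 in Hes5-positive cells, and it was over 2 in 36, 31 and 35 of the 40. Cells with Mki67, a marker of cycling cells, were kept out of these neurons, so part of the ratio follows from that choice. Nasp, a histone chaperone, gave 25.4% of all member UMIs and Casp8ap2, which acts in histone mRNA processing, 6.19%, so a sum over members weights these heavily.

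The first question was how much S-phase RNA the cortex held in each genotype. The level is the sum of member UMIs per 10000 UMIs of a cell, averaged over the cells of an embryo. Over all kept cells it was 10.7, 11.2 and 10.7 in WT, 11.5, 10.7, 11.5 and 12.1 in Het and 11.8, 12.5 and 12.2 in KO. Every KO embryo lay above every WT embryo, with means of 12.2 ± 0.350 (SD, n = 3) in KO and 10.9 ± 0.286 (SD, n = 3) in WT, a ratio of 1.12. Het embryos (11.4 ± 0.584, SD, n = 4) overlapped both groups. The difference of 1.32 between KO and WT was 2.32 at no more than 5% mitochondrial UMIs. No test was made on this sum, since the members were chosen with results of these data known.

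Of the gates, the Eomes-positive one took a larger share of cells in KO. It held 4.49, 4.92 and 4.43% in WT, 7.98, 5.51, 6.52 and 6.64% in Het and 8.17, 7.03 and 8.76% in KO, and neither Het nor KO overlapped WT (7.99% ± 0.877 in KO, 6.66% ± 1.01 in Het, 4.61% ± 0.264 in WT). The exact permutation test over embryos (two-sided) gave p = 0.1 for KO vs WT, the smallest that 3 against 3 allows, and p = 0.0571 for Het vs WT, where 0.0286 is the smallest. Dlx-positive cells made up 6.16, 7.95 and 7.40% in WT, 7.34, 8.62, 8.89 and 9.74% in Het and 8.46, 9.50 and 9.50% in KO (KO vs WT exact p = 0.1, Het vs WT exact p = 0.143). KO lay above WT without overlap and Het did not. Hes5-positive cells were few and showed no such order, at 1.39, 2.12 and 1.601% in WT, 1.66, 1.41, 1.51 and 1.64% in Het and 1.84, 1.30 and 2.01% in KO (KO vs WT exact p = 1, Het vs WT exact p = 0.629). Adjusted over the 6 tests, the p-values were 0.2 for both gates in KO and for Eomes-positive cells in Het, 0.214 for Dlx-positive cells in Het, and 1 and 0.754 for Hes5-positive cells. With groups this small no share could have passed 0.05 after adjustment, whatever its values. The adjusted values therefore decide nothing about the shares. The choroid plexus cells of WT replicate 1 are part of its denominator. Its share in the Dlx gate was the lowest of the 3 WT embryos. A gate asks for a fixed number of UMIs, and median UMIs per cell were 10795 to 14844 in WT and 14324.5 to 17077.5 in KO. In cells thinned to 5000 UMIs both shares stayed higher in KO. Their parts in the split below went from 0.539 to 0.424 in the Eomes gate and from 0.568 to 0.328 in the Dlx gate.

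Within the gates the level differed in opposite directions. In Dlx-positive cells it was 24.1, 26.5 and 22.4 in WT, 28.0, 25.6, 28.7 and 29.4 in Het and 30.6, 36.3 and 31.3 in KO, with means of 24.3 ± 2.02 in WT and 32.7 ± 3.10 in KO and no overlap. In Eomes-positive cells it was 18.2, 19.2 and 15.6 in WT, 18.2, 16.1, 15.1 and 14.6 in Het and 15.0, 13.8 and 13.8 in KO, lower in every KO embryo than in every WT embryo (17.7 ± 1.85 in WT and 14.2 ± 0.710 in KO). When UMIs were pooled over the cells of an embryo in place of the average over cells, the Eomes gate had 20.6, 21.6 and 17.1 in WT and 17.2, 15.2 and 14.9 in KO, where WT replicate 3 and KO replicate 1 overlapped, and in the Dlx gate WT (27.9 to 29.7), Het (31.8 to 35.3) and KO (36.8 to 43.0) did not overlap. Hes5-positive cells had 30.5, 22.1 and 24.3 in WT, 33.2, 26.3, 25.9 and 24.6 in Het and 33.7, 34.3 and 28.6 in KO, and WT replicate 1 overlapped the KO embryos there. As averages over cells, Het embryos overlapped WT in all 3 gates. Cells outside the gates had a level of 8.58 to 9.65 and neurons of 7.36 to 8.13, with KO overlapping WT in the former and not in the latter, where KO was lower.

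**Figure D1:**
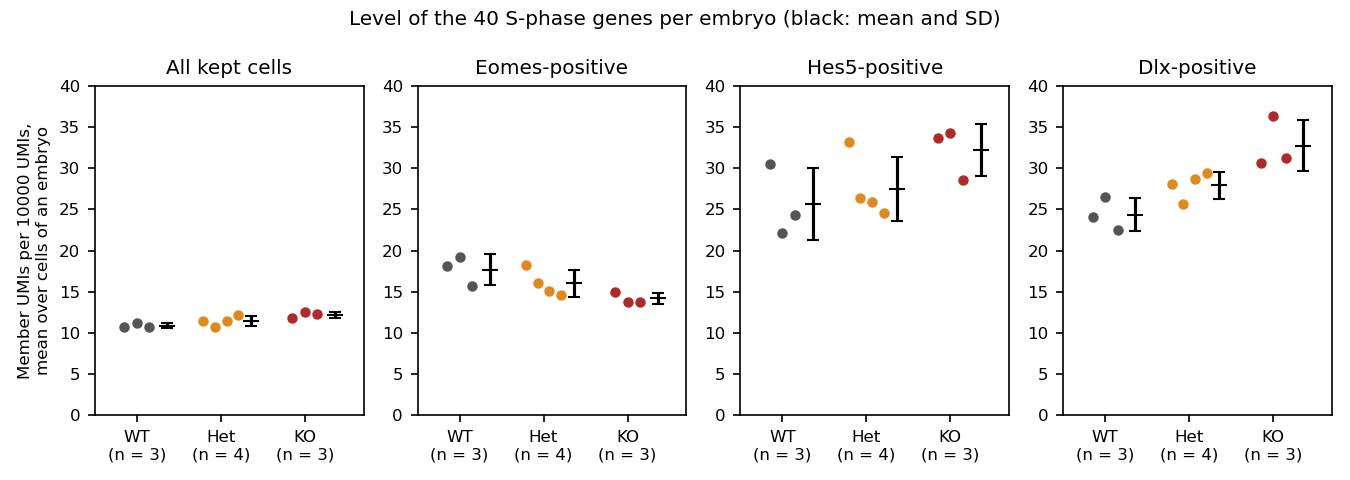
Level of the 40 S-phase genes, as member UMIs per 10000 UMIs averaged over the cells of an embryo, over all kept cells and in the 3 gates. Colored points are embryos and black marks are the mean and SD of a genotype; the KO points lie above WT over all cells (11.8 to 12.5 against 10.7 to 11.2) and in the Dlx gate (30.6 to 36.3 against 22.4 to 26.5), and below WT in the Eomes gate (13.8 to 15.0 against 15.6 to 19.2).

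**Figure D2:**
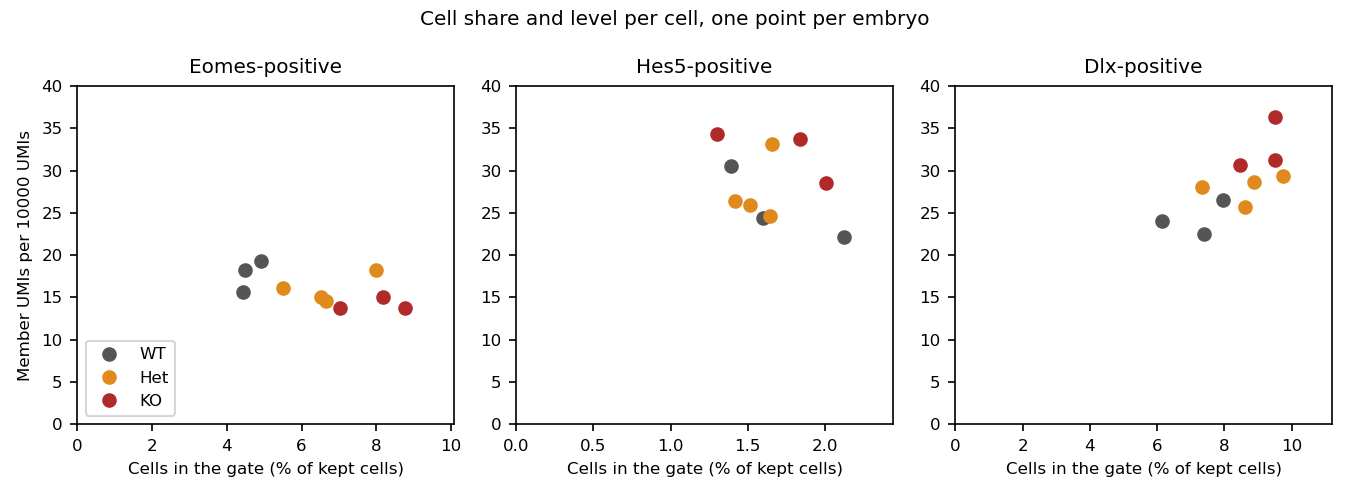
Share of kept cells in each gate (x axis, %) against the level per cell (y axis, member UMIs per 10000 UMIs), one point per embryo colored by genotype. KO embryos lie to the right of WT and lower in the Eomes gate, to the right and higher in the Dlx gate, and overlap WT in share in the Hes5 gate (1.30 to 2.01% against 1.39 to 2.12%).

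The difference over all cells was split into what came from cell shares and what came from the level per cell, each weighted by the mean of both groups. Of the KO minus WT difference of 1.32, the shares of the 3 gates gave 1.11 and the level within them 0.580, while the smaller share of all other cells took away 0.493 and their level added 0.121. Over all cells the parts were 0.617 from share and 0.701 from level. The Eomes gate added 0.539 through its share and -0.224 through its level. The Dlx gate added through both, 0.568 by share and 0.688 by level. The Hes5 gate added 0.00307 by share and 0.116 by level. For Het minus WT (0.578), the shares of the 3 gates gave 0.695 and their level 0.231. All other cells gave -0.307 by share and -0.0415 by level, so over all cells the parts were 0.388 and 0.190. With at least 5 UMIs of the gate marker (and at least 2 of the further gene in the Dlx gate) asked of a cell, the part from level within the gates in KO was 0.178, while that of all other cells was 0.424, and the sum of both went from 0.701 to 0.602. Among cells under 5% mitochondrial UMIs the parts from share and level were 1.55 and 0.942 within the 3 gates. All other cells gave -0.625 and 0.457, so over all cells share gave 0.927 and level 1.40.

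**Figure D3:**
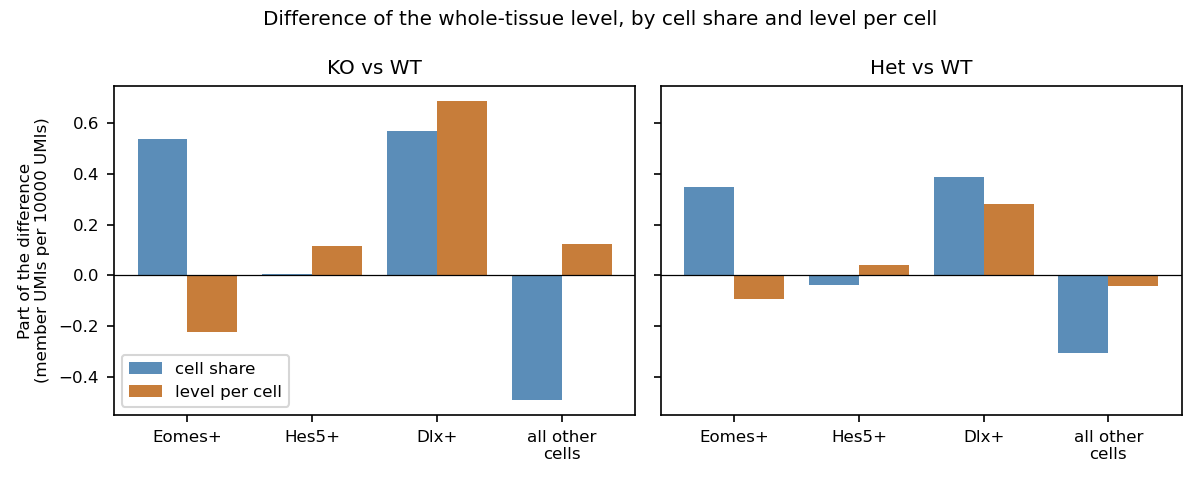
Parts of the difference in the whole-tissue level (y axis, member UMIs per 10000 UMIs) that came from the share of cells (blue) and from the level per cell (orange) in each gate and in all other cells, for KO vs WT and Het vs WT. In KO the share of Eomes-positive cells adds 0.539 while their level subtracts, and Dlx-positive cells add through both.

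A level per cell can move because more cells are in S phase or because each such cell holds more of the RNA. S-phase-high cells were counted, those over 17.1 member UMIs per 10000, which is the 99th percentile in neurons averaged over embryos. The count uses the same member sum as the level and so does not separate the 2 readings by itself. By that limit 0.506 to 1.76% of neurons counted as high, a figure that the limit itself largely sets. Erythroid cells gave 0 to 1.70%, but were picked for a large share of erythroid marker UMIs, which lowers every other share. Neither figure is an independent check of the limit. In the Dlx gate S-phase-high cells were 31.7, 34.1 and 28.0% in WT, 36.4, 33.4, 36.1 and 37.5% in Het and 44.0, 47.9 and 42.6% in KO. All 3 KO embryos lay above the 4 Het embryos, and Het overlapped WT. Within the S-phase-high cells of this gate the level was 56.6, 60.4 and 57.2 in WT, 61.7, 59.2, 63.6 and 63.2 in Het and 58.4, 66.4 and 61.4 in KO, with overlap, and below the limit it was 8.73 to 9.09 in every embryo. Of the 8.42 by which KO exceeded WT in the Dlx gate, the share of S-phase-high cells gave 6.94 and the level within them 1.52. Since the same member sum defines these cells, more RNA per cell would also raise their share. This split and those of the other gates therefore cannot tell more cells in S phase from more RNA per cell.

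In the Eomes gate S-phase-high cells were fewer in KO, with 20.6, 20.2 and 19.1% in WT, 22.5, 17.1, 15.6 and 15.0% in Het and 16.1, 14.9 and 12.2% in KO. Of its difference of -3.51, the share of such cells gave -2.38 and their level -0.908. The Hes5 gate had the largest shares, 54.9, 40.8 and 40.8% in WT, 56.7, 41.4, 43.5 and 48.5% in Het and 64.8, 62.7 and 54.8% in KO, where KO replicate 3 and WT replicate 1 overlapped. Of its difference of 6.55, the share of such cells gave 5.77. Over all cells S-phase-high cells were 8.90, 9.32 and 8.89% in WT, 9.14, 7.82, 8.71 and 10.6% in Het and 10.2, 10.5 and 10.8% in KO, and the Dlx gate held 21.9, 29.1 and 23.3% of them in WT and 36.3, 43.2 and 37.4% in KO. The base of this last share includes S-phase-high cells outside the gates, which held fewer UMIs in WT than in KO (last section). The part of that depth in the share was not tested. The difference in S-phase-high cells over all cells, 1.502 percentage points, was 0.0898 with the 95th percentile as limit, 3.78 at no more than 5% mitochondrial UMIs, 2.31 in cells with at least 3000 UMIs and 2.52 in thinned cells. In the Eomes gate -5.55 became -2.15 at no more than 5% mitochondrial UMIs, and in the Hes5 gate 15.3 became 4.64 with the highest limit tried. Between 131 and 304 cells per embryo lay near the limit. In cells thinned to 5000 UMIs, with 339 to 1612 shallower cells left out per embryo, Dlx-positive S-phase-high cells were 29.8 to 39.4% in WT and 45.6 to 52.5% in KO, and Eomes-positive ones 16.1 to 21.2% and 13.1 to 16.4%, which overlap.

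**Figure D4:**
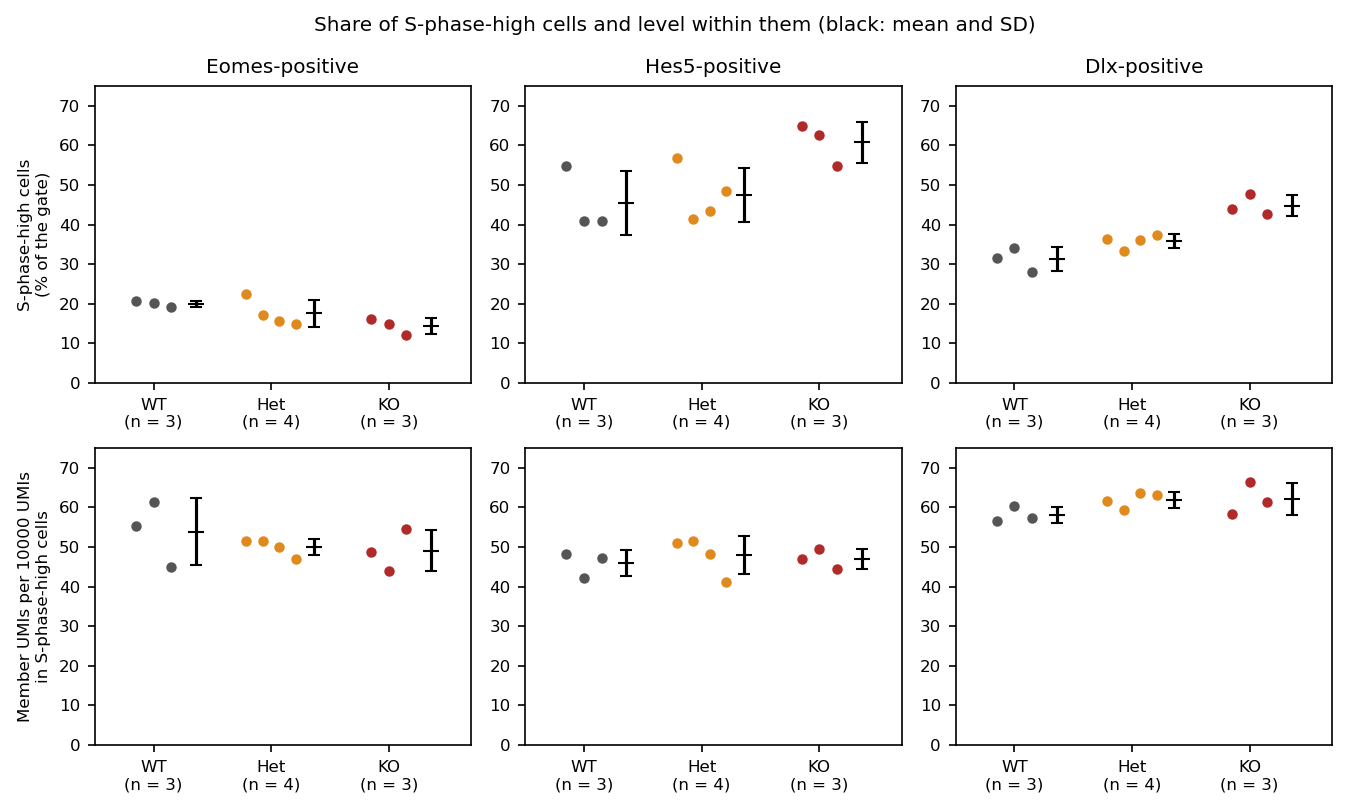
Upper row, S-phase-high cells as % of the gate; lower row, member UMIs per 10000 UMIs within those cells. Points are embryos by genotype and black marks are mean and SD; the upper Dlx panel rises from 28.0 to 34.1% in WT to 42.6 to 47.9% in KO, while the groups overlap in the lower Dlx panel.

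The members were then tested one by one on UMIs summed per embryo (edgeR quasi-likelihood test, Benjamini-Hochberg adjustment over all genes tested, called where the adjusted p was below 0.05 and the log2 fold change exceeded 0.25 in size). Values are CPM, UMIs of a gene per 1000000 UMIs of the population after TMM scaling. Since they are shares of a summed population, fewer expressing cells and less RNA per cell cannot be told apart. KO and Het were both set against the same 3 WT embryos. The median log2 fold change over all genes lay between -0.014 and 0.00048 in the 12 comparisons (4 populations by 3 pairs of genotypes). In Dlx-positive cells 34 of 40 members were higher in KO and 0 lower, beside 11.3% of all genes higher and 12.1% lower. The median over the 40 was 0.52, and in 39 every KO embryo was above every WT embryo, beside 21.2% of all genes. Over all cells 14 were higher and 0 lower (background 12% and 12.5%, median 0.21). In Eomes-positive cells 0 were higher and 12 lower (background 7.96% and 8.26%, median -0.30), with 0 higher and 22 lower at an unadjusted p under 0.05 (16.4% and 16.6% of all genes) and 11 lower by DESeq2. In Hes5-positive cells 4 were higher (Gmnn, Pcna, Fen1 and Usp1) and 0 lower (background 5.76% and 6.5%, median 0.32). Over all cells, Hes5-positive and Dlx-positive cells, the members negative at an unadjusted p under 0.05 numbered 2, 0 and 0, beside 23%, 14.6% and 19.3% of all genes.

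Of the licensing and helicase genes 8 of 8 were called higher in the Dlx gate (0.52 to 0.87). Mcm2, a helicase subunit (chromosome 6, 88883474 to 88898780, minus strand, GRCm38), had 36.4, 34.9 and 32.6 CPM in WT, 58.2, 44.1, 55.8 and 51.0 CPM in Het and 55.5, 75.8 and 59.4 CPM in KO (log2 fold change 0.87, SE 0.12, adjusted p = 1.98e-04). Every Het and KO embryo was above every WT embryo. Mcm6, its partner in the ring (chromosome 1, 128331590 to 128359664, minus strand), had 79.8, 77.9 and 71.8 CPM in WT, 102, 99.3, 97.5 and 91.2 CPM in Het and 110.0, 125 and 112 CPM in KO in the same cells (log2 fold change 0.60, SE 0.07, adjusted p = 8.92e-05). In Eomes-positive cells Mcm6 went the other way, with 72.2, 70.6 and 72.2 CPM in WT, 68.6, 74.6, 51.4 and 54.7 CPM in Het and 58.1, 41.6 and 45.6 CPM in KO (log2 fold change -0.56, SE 0.14, adjusted p = 0.0177). Het replicates 3 and 4 were as low there as KO, and Het replicates 1 and 2 were at the WT level. Mcm4 rose in the Dlx gate (0.61, adjusted p = 3.33e-04) and was not called elsewhere (0.18 over all cells, -0.30 in the Eomes gate).

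Geminin (Gmnn, chromosome 13, 24751845 to 24761923, minus strand), the inhibitor of relicensing, showed the largest change over all cells. It had 11.2, 14.2 and 11.1 CPM in WT, 16.45, 14.9, 17.6 and 16.1 CPM in Het and 20.4, 23.4 and 22.1 CPM in KO (log2 fold change 0.85, SE 0.09, adjusted p = 9.68e-05). In the Dlx gate it had 58.9, 65.4 and 59.8 CPM in WT, 83.1, 80.0, 87.7 and 80.8 CPM in Het and 107, 126 and 104 CPM in KO (log2 fold change 0.87, SE 0.08, adjusted p = 1.52e-05), and the 3 genotypes followed each other without overlap. Hes5-positive cells also held more Gmnn in KO, 91.6, 76.3 and 52.4 CPM in WT, 114, 83.8, 93.2 and 78.2 CPM in Het and 127, 132 and 118 CPM in KO (log2 fold change 0.78, SE 0.17, adjusted p = 0.00956). In Eomes-positive cells Gmnn was not called, at 35.2, 39.99 and 23.0 CPM in WT and 35.1, 29.6 and 30.7 CPM in KO (-0.05). Cdc6, the loader of the helicase (chromosome 11, 98907801 to 98923940, plus strand), was the member with the largest fall in Eomes-positive cells, 11.1, 7.89 and 6.70 CPM in WT, 6.47, 5.98, 3.65 and 5.95 CPM in Het and 5.13, 3.81 and 3.99 CPM in KO (log2 fold change -0.98, SE 0.25, adjusted p = 0.0180), on few UMIs. In the Dlx gate it had 15.2, 13.9 and 12.7 CPM in WT, 11.7, 11.8, 17.1 and 16.8 CPM in Het and 18.6, 24.0 and 17.7 CPM in KO (log2 fold change 0.52, SE 0.17, adjusted p = 0.0304), and KO alone stood above WT. Of the other members of this role Mcm5 fell in Eomes-positive cells (-0.62), and Cdc45 (-0.69) and Gins2 (-0.02), which complete the active helicase, were not called there. Mcm5 and Mcm2 were the other members of this role called higher over all cells besides Gmnn and Mcm6.

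**Figure D5:**
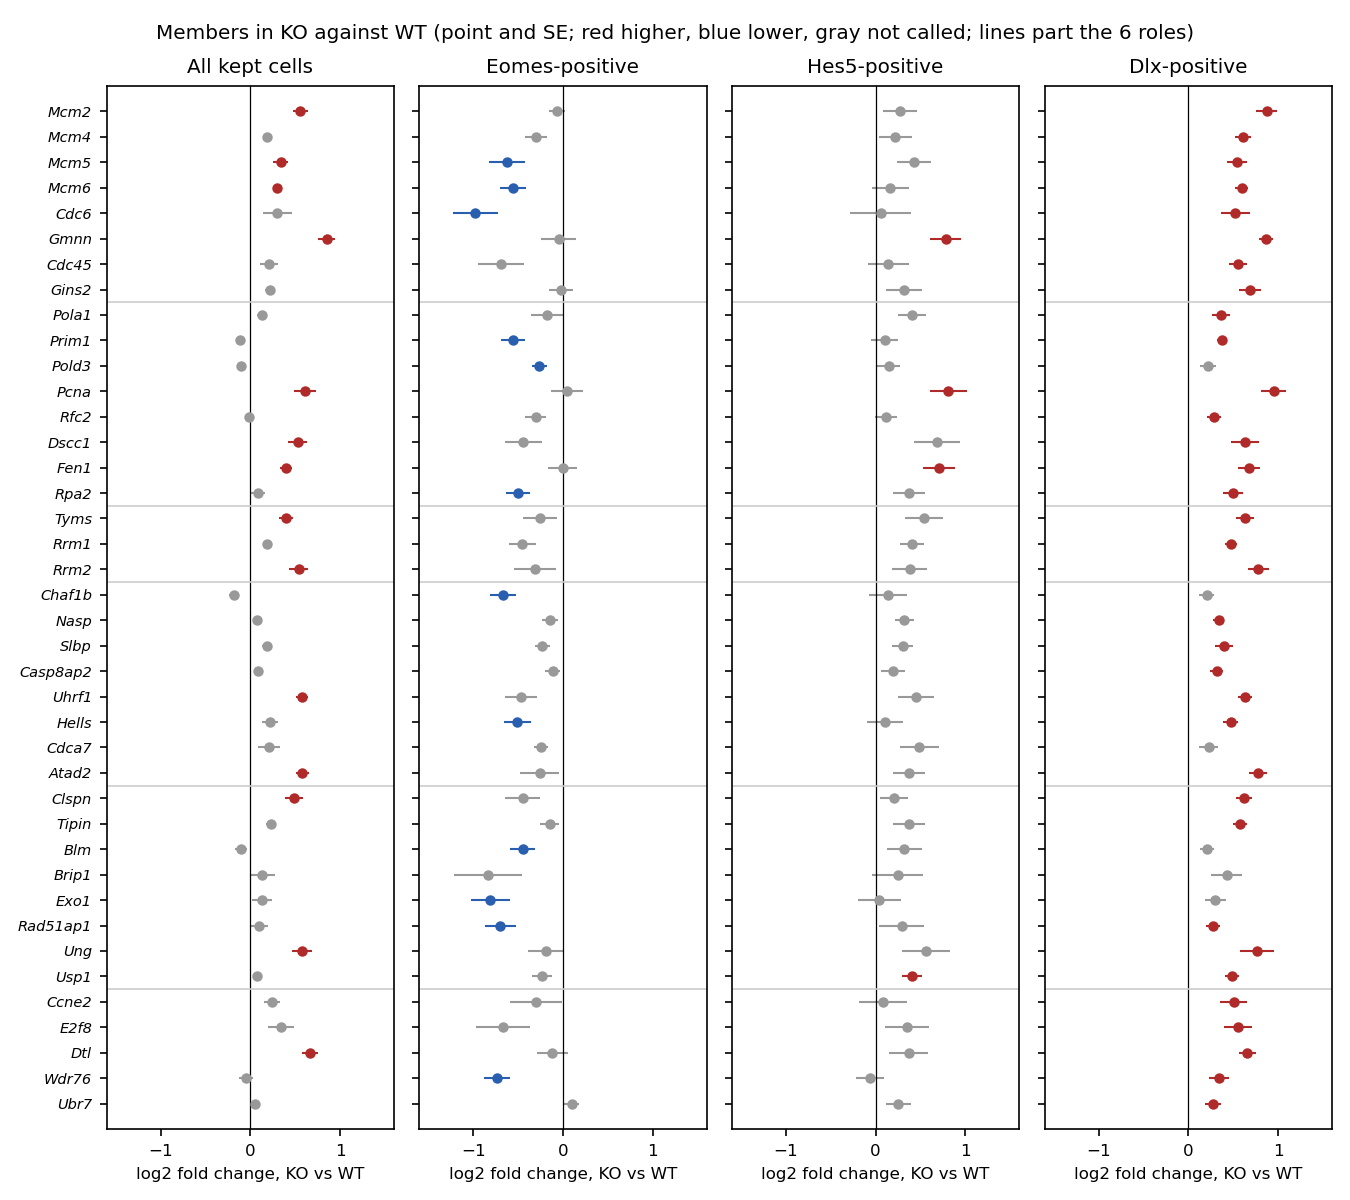
Log2 fold change of each member in KO vs WT (x axis, point and SE) over all kept cells and in the 3 gates, with the members in order of role. Red points were called higher, blue lower and gray not called: 14, 0, 4 and 34 red and 0, 12, 0 and 0 blue from left to right.

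Among the 8 genes of DNA synthesis 7 were higher in the Dlx gate, all but Pold3 (0.22, adjusted p = 0.0959). Pcna, the sliding clamp (chromosome 2, 132249162 to 132253314, minus strand), changed most, with 64.5, 72.8 and 63.9 CPM in WT, 117, 96.8, 110.0 and 79.5 CPM in Het and 112, 158 and 121 CPM in KO (log2 fold change 0.95, SE 0.14, adjusted p = 3.17e-04). Het replicate 4 was the lowest of the Het embryos and still above WT. Hes5-positive cells had 59.8, 58.3 and 51.1 CPM in WT, 104, 68.8, 112 and 62.1 CPM in Het and 103, 118 and 79.4 CPM in KO of Pcna (log2 fold change 0.81, SE 0.20, adjusted p = 0.0188), and over all cells it was 26.4, 30.3 and 25.6 CPM in WT, 39.6, 39.4, 42.2 and 30.1 CPM in Het and 38.6, 48.0 and 39.0 CPM in KO (log2 fold change 0.61, SE 0.12, adjusted p = 0.00297). In both populations Het replicate 4 lay nearer to WT than the other Het embryos, which share a prefix with KO. Eomes-positive cells had no call for Pcna (0.05, adjusted p = 0.882). Prim1, the primase subunit that starts each strand, fell there, 47.8, 45.1 and 35.9 CPM in WT, 41.2, 34.8, 34.3 and 28.1 CPM in Het and 30.7, 28.4 and 28.4 CPM in KO (log2 fold change -0.56, SE 0.13, adjusted p = 0.0128), and rose in Dlx-positive cells (0.37, adjusted p = 5.94e-04). Pold3 of polymerase delta and Rpa2, which coats single-stranded DNA, also fell in Eomes-positive cells (-0.26 and -0.50). Rfc2, a subunit of the clamp loader, rose by 0.28 in Dlx-positive cells (adjusted p = 0.0168) and had 49.0, 50.9 and 49.9 CPM in WT and 48.9, 53.3 and 46.4 CPM in KO over all cells, without a call (-0.01).

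The 3 genes of nucleotide supply were all higher in the Dlx gate. Rrm2, the regulated subunit of ribonucleotide reductase, had 134, 135 and 109 CPM in WT, 174, 152, 169.8 and 179.6 CPM in Het and 189, 261 and 201 CPM in KO (log2 fold change 0.78, SE 0.11, adjusted p = 3.30e-04). Its large subunit Rrm1 had 121, 121 and 103 CPM in WT, 143, 134, 132 and 139 CPM in Het and 155, 167 and 158 CPM in KO (log2 fold change 0.48, SE 0.07, adjusted p = 4.04e-04). In Eomes-positive cells the 3 were negative without a call, and Rrm1 missed the threshold with -0.45 (adjusted p = 0.0544). Over all cells Rrm2 rose (0.54, adjusted p = 0.00327) together with Tyms, thymidylate synthase (0.40), and Rrm1 was under the fold limit (0.19).

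Of the 8 genes of histones and chromatin 6 were higher in the Dlx gate. Nasp (chromosome 4, 116601052 to 116627941, minus strand) had 595, 539 and 545 CPM in WT, 667, 632, 661 and 666 CPM in Het and 693, 748 and 682 CPM in KO there (log2 fold change 0.34, SE 0.06, adjusted p = 0.00109). Over all cells it was not called, with 293, 284 and 285 CPM in WT and 301, 303 and 303 CPM in KO (0.07, adjusted p = 0.157). Casp8ap2 likewise was called in Dlx-positive cells (log2 fold change 0.31, SE 0.07, adjusted p = 0.00721) and in no other of the 4 populations. This concerns calls only, since in a direct test (below) 0 of 40 members differed between the Dlx and Hes5 gates. Uhrf1, which brings the maintenance methyltransferase to newly copied DNA (chromosome 17, 56303321 to 56323486, plus strand), had 62.1, 59.3 and 59.2 CPM in WT, 88.2, 79.2, 83.5 and 71.5 CPM in Het and 91.3, 102 and 86.9 CPM in KO in the Dlx gate (log2 fold change 0.63, SE 0.08, adjusted p = 1.69e-04), and all Het embryos were above WT. Atad2, a bromodomain ATPase (chromosome 15, 58094044 to 58135082, minus strand), had 122, 143 and 109.9 CPM in WT, 183, 144, 168 and 167 CPM in Het and 210.4, 228 and 202 CPM in KO (log2 fold change 0.77, SE 0.10, adjusted p = 1.36e-04). Both also rose over all cells (0.57 and 0.58). Chaf1b, of the chaperone that deposits histones behind the fork, fell in Eomes-positive cells, 20.3, 17.9 and 15.1 CPM in WT, 15.7, 18.6, 13.6 and 13.4 CPM in Het and 10.8, 11.7 and 11.2 CPM in KO (log2 fold change -0.67, SE 0.15, adjusted p = 0.00917), as did the chromatin remodeler Hells (-0.51, adjusted p = 0.0316), which rose in Dlx-positive cells (0.47). Cdca7, the partner of Hells, was not called in any population.

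Fork protection and repair genes gave 5 calls of 8 in the Dlx gate. Tipin, which stabilizes the fork, had 82.9, 93.1 and 91.1 CPM in WT, 123, 111, 116 and 113 CPM in Het and 123, 147 and 129 CPM in KO there (log2 fold change 0.58, SE 0.08, adjusted p = 1.88e-04). Usp1, which removes ubiquitin from Pcna, had 99.8, 109 and 96.1 CPM in WT, 122, 108, 119 and 123 CPM in Het and 135, 158 and 135 CPM in KO (log2 fold change 0.49, SE 0.08, adjusted p = 7.18e-04). In Hes5-positive cells Usp1 was 141, 120.4 and 126 CPM in WT, 160.0, 133, 162 and 144 CPM in Het and 176, 187 and 150.02 CPM in KO (log2 fold change 0.40, SE 0.11, adjusted p = 0.0294). The repair genes Blm, Exo1 and Rad51ap1 fell in Eomes-positive cells (-0.45, -0.81 and -0.70, adjusted p = 0.0414, 0.0220 and 0.0178). Blm and Exo1 were not called in the Dlx gate (0.21 and 0.30). Brip1, a helicase of the Fanconi pathway, was not called in any population. In Eomes-positive cells it had 6.45, 8.95 and 3.26 CPM in WT and 5.13, 1.76 and 3.39 CPM in KO (log2 fold change -0.83, SE 0.38, adjusted p = 0.147), a wide spread on few UMIs. Over all cells Clspn, the checkpoint mediator, and Ung, a uracil DNA glycosylase, were called higher (0.49 and 0.57).

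All 5 genes of cell cycle control and others were higher in the Dlx gate. Dtl, the substrate receptor that marks licensing factors for destruction in S phase (chromosome 1, 191537356 to 191575544, minus strand), had 34.4, 38.1 and 35.6 CPM in WT, 51.6, 42.8, 51.7 and 43.0 CPM in Het and 51.9, 62.5 and 56.8 CPM in KO (log2 fold change 0.66, SE 0.10, adjusted p = 3.05e-04). It was the one of the 5 also called over all cells, where it had 9.08, 9.91 and 8.69 CPM in WT, 14.7, 12.2, 12.7 and 10.9 CPM in Het and 14.7, 14.9 and 14.4 CPM in KO (log2 fold change 0.67, SE 0.09, adjusted p = 3.71e-04). Wdr76 (chromosome 2, 121506723 to 121544860, plus strand) was among the members with opposite signs. It rose in Dlx-positive cells (log2 fold change 0.34, SE 0.11, adjusted p = 0.0403) and fell in Eomes-positive cells, with 26.4, 22.0 and 23.7 CPM in WT, 19.3, 16.7, 18.7 and 17.5 CPM in Het and 16.7, 10.4 and 15.6 CPM in KO (log2 fold change -0.73, SE 0.15, adjusted p = 0.00584). Its level over all cells was 13.4, 13.5 and 13.7 CPM in WT and 12.5, 13.4 and 13.3 CPM in KO, without a call (-0.05). Ubr7, the most abundant of the role, rose by 0.28 in the Dlx gate (adjusted p = 0.0277) and was not called in the Eomes gate (0.10). In all, 8 members were called higher in Dlx-positive and lower in Eomes-positive cells (Mcm5, Mcm6, Cdc6, Prim1, Rpa2, Hells, Rad51ap1 and Wdr76), and each of the 14 called over all cells was also called in the Dlx gate.

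The difference between gates was tested directly, in a fit over both gates with the embryo as a block and genotype by gate as the term. The change in KO vs WT was higher in Dlx-positive than in Eomes-positive cells for 34 of 40 members, beside 3.53% of all genes, with a median difference of 0.92 on the log2 scale (-9.9e-05 over all genes). Mcm6 differed by 1.16 (SE 0.15, adjusted p = 0.00146), Pcna by 0.88 (SE 0.14, adjusted p = 0.00384) and Nasp by 0.49 (SE 0.09, adjusted p = 0.0106). Cdc6 had the largest difference, 1.46 (SE 0.31, adjusted p = 0.0155). The 6 not called were Pola1, Ccne2, Ung, E2f8, Brip1 and Ubr7. Without KO replicate 3 the count was 19, without WT replicate 2 it was 21 and without KO replicate 2 it was 23. The share of all genes called in these left-out fits is not given here, so the moved counts are not a result about the members alone. Hes5-positive cells also differed from Eomes-positive ones, with 12 members higher (background 2.04%, median 0.70), among them Gmnn by 0.83 (SE 0.15, adjusted p = 0.00764) and Rrm1 by 0.87 (SE 0.15, adjusted p = 0.00505). Between Dlx-positive and Hes5-positive cells 0 members differed in KO vs WT (background 0.909%, median 0.12, 2 higher at an unadjusted p under 0.05 beside 7.13% of all genes). The widths were such that Mcm2, for one, differed by 0.53 (SE 0.18, adjusted p = 0.186). For Het vs WT the change in Dlx-positive minus that in Eomes-positive cells gave 0 calls (background 0%, median 0.45, 29 higher at an unadjusted p under 0.05 beside 4.52% of all genes).

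Het embryos were next set against WT. In the Dlx gate 11 members were higher than in WT and 0 lower (background 0.99% and 0.888%, median 0.30): Mcm2, Mcm6, Gmnn, Prim1, Pcna, Uhrf1, Hells, Atad2, Clspn, Tipin and Dtl. Mcm6 rose by 0.34 (adjusted p = 0.0251) and Gmnn by 0.43 (adjusted p = 0.0191), each higher in 4 of 4 Het embryos than in any WT embryo. Over all cells 6 were higher (Mcm2, Gmnn, Pcna, Uhrf1, Atad2 and Dtl) and 0 lower (background 1.58% and 1.4%, median 0.13). In Eomes-positive cells 0 were called in either direction (background 0.0234% and 0.0156%, median -0.17, 6 lower at an unadjusted p under 0.05 beside 7.1% of all genes, 0 by DESeq2). Hes5-positive cells gave 0 as well, where no gene at all was called (background 0% and 0%, 3 members higher at an unadjusted p under 0.05 beside 5.25% of all genes, 0 by DESeq2). These lists were not tested as sets. A fit with the prefix as a covariate compares Het with WT only through Het replicate 4, and the part of lost precision in its counts was not tested. With the prefix as a covariate the 11 members called in the Dlx gate became 0 (0% of all genes) and the 6 over all cells became 1 (0.108%). They were also 0 in the Dlx gate when only cells without Neurod6 entered (0.0498% of all genes) and 1 over all cells with only Het and WT in the fit. Both counts moved with single embryos. Het replicate 4 is the only Het embryo with the prefix of WT, so without it genotype and prefix cannot be told apart in Het vs WT. The share of all genes called higher moved as well, between 0.0386% without WT replicate 3 and 3.67% without Het replicate 4 in the Dlx gate, and between 0.19% without WT replicate 1 and 5.14% without Het replicate 4 over all cells. Members of the Dlx gate numbered 0 without WT replicate 3, Het replicate 1 or Het replicate 3, 5 without WT replicate 1, 7 without WT replicate 2, Het replicate 2 or KO replicate 3, and 16 without Het replicate 4. Those over all cells numbered 0 without WT replicate 1, WT replicate 3 or Het replicate 3, 1 without Het replicate 1, 2 without KO replicate 3, 3 without WT replicate 2, Het replicate 2 or KO replicate 1, and 9 without Het replicate 4.

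KO set against Het asks for a step between 1 and 2 altered copies. In the Dlx gate Gmnn (log2 fold change 0.44, SE 0.07, adjusted p = 0.00623) and Atad2 (log2 fold change 0.37, SE 0.09, adjusted p = 0.0437) were higher in KO (background 0.896% higher and 1.88% lower). Over all cells the same 2 genes were called, Gmnn at 0.43 and Atad2 at 0.29 (background 2.53% and 2.96%). These counts moved with single embryos, to 0 over all cells without KO replicate 2 or KO replicate 3, 1 without Het replicate 2 and 4 without Het replicate 1, and in the Dlx gate to 1 without Het replicate 2, Het replicate 3 or any 1 KO embryo. Stricter gates gave 0 in the Dlx gate, no filter on low counts 11 and DESeq2 5. The share of all genes called in these fits is not given here, so the moved counts are not a result about the members alone. In Eomes-positive cells 0 were called (background 1.05% and 1.11%, 9 lower at an unadjusted p under 0.05 beside 8.07% of all genes) and in Hes5-positive cells 0 (background 0.644% and 1.06%, 4 higher at an unadjusted p under 0.05 beside 6.74% of all genes), and DESeq2 called 0 in both. Within the libraries of 1 prefix, KO against Het replicates 1 to 3, 4 members were called higher in the Dlx gate (1.29% of all genes), 3 over all cells (2.92%) and 0 in each of the Eomes and Hes5 gates (1.04% and 0.666%).

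As a covariate the library prefix is estimated only from Het replicate 4 against Het replicates 1 to 3, so through 1 embryo. The part of lost precision in the counts of that fit was not tested. The prefix changed the count of KO against WT in each of the 4 populations, and the difference between gates was not fitted with it. With it as a covariate, 9 members were higher in Dlx-positive cells (0.951% of all genes), 8 over all cells (4.23%), 0 in Hes5-positive cells (0.52%) and 2 lower in Eomes-positive cells (0.483%) in KO vs WT. Levels were also set side by side within one prefix. In the Dlx gate KO (mean 32.7) did not overlap Het replicates 1 to 3 (27.4), and Het replicate 4 (29.4) was above all 3 WT embryos (24.3). In the Eomes gate KO (14.2) was below Het replicates 1 to 3 (16.45) and Het replicate 4 (14.6) below WT (17.7), both without overlap. With UMIs pooled over cells, KO replicate 1 lay above Het replicate 3 in this gate, so KO and these Het embryos overlapped. In the Hes5 gate KO (32.2) overlapped Het replicates 1 to 3 (28.5), and Het replicate 4 (24.6) was under the WT mean (25.6) and within the WT range. Of the other values of KO against Het replicates 1 to 3, the shares of Eomes-positive (7.99% against 6.67%) and Dlx-positive cells (9.15% against 8.28%) overlapped, as did S-phase-high cells in the Eomes gate (14.4% against 18.4%), and those of the Dlx gate did not (44.8% against 35.3%). Among cells under 5% mitochondrial UMIs 27 members were higher over all cells (12.7% of all genes), and 3 were lower in Eomes-positive cells (6.85%). The 12 lower calls there also moved with single embryos, with 3 without WT replicate 1 or without KO replicate 2, 4 without WT replicate 2 or KO replicate 3, and 16 without WT replicate 3. The share of all genes called lower with an embryo left out is not given here, so these counts are not a result about the members alone.

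Mki67 was read in the same gates. This gene, a marker of cycling cells, had a UMI in 30.1, 32.9 and 24.7% in WT, 32.4, 30.4, 32.9 and 35.5% in Het and 41.5, 40.1 and 38.7% in KO of Dlx-positive cells and in 24.7, 24.7 and 18.5% in WT and 19.8, 19.1 and 15.7% in KO of Eomes-positive cells, where KO overlapped WT. In Hes5-positive cells the shares were 43.4, 44.1 and 40.8% in WT and 63.9, 61.2 and 59.7% in KO. Among the Mki67-positive cells of the Dlx gate the S-phase level was 53.0, 54.6 and 51.6 in WT and 54.1, 65.5 and 57.3 in KO, which overlap. In the Hes5 gate it was 41.2, 35.1 and 37.2 in WT and 38.7, 38.1 and 33.6 in KO and in the Eomes gate 39.7, 45.3 and 33.5 in WT and 35.6, 30.0 and 31.8 in KO, with overlap in both. In the Mki67-positive cells of the Dlx gate 4 members were called higher (median 0.17, beside 1.6% of all genes). In Mki67-positive cells of the Eomes gate 1 was called lower (0.918% of all genes), and of the Hes5 gate 0 in either direction (1.86% higher and 2.66% lower). These cells were fewer than the whole gate, 139 to 274 per embryo in the Dlx gate, and the part of cell number in the lower count was not tested.

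Markers of cell types differed within the gates as well. In Dlx-positive cells 5 of 10 radial glia markers (Hes5, Sox2, Fabp7, Vim and Nes) and, of the 3 ganglionic eminence markers that the gate does not use, Gsx2 was higher in KO and Gad2 lower, and 2 of 5 excitatory neuron markers (Neurod2 and Neurod6) were lower. The radial glia markers summed to 989.5, 1351 and 1335 CPM in WT and 2519, 1742 and 2331 CPM in KO and the excitatory neuron markers to 733, 687 and 649 CPM in WT and 670.0, 586 and 679 CPM in KO. When only Dlx-positive cells without Neurod6 entered, 29 members were higher (median 0.47, beside 9% of all genes). Without Neurod6 the Eomes gate, at 19 to 70 cells per embryo, gave 1 lower member of 38 tested (0.426% of all genes) and the Hes5 gate 1 higher (3.8%). Of 6 intermediate progenitor markers Btg2, Insm1 and Mfap4 were higher in the Dlx gate, and of 4 glial progenitor markers Egfr was lower. In Eomes-positive cells 3 of 10 radial glia markers (Vim, Nes and Hopx), Btg2 and Insm1 of the 5 intermediate progenitor markers that the gate does not use and 1 of 5 excitatory neuron markers (Bcl11b) were higher in KO, and 3 of 4 glial progenitor markers (Olig1, Pdgfra and Egfr) were lower on few UMIs. Radial glia markers summed to 1499, 2118 and 2073 CPM in WT and 2639, 2336 and 2085 CPM in KO there, and glial progenitor markers to 16.6, 15.8 and 23.5 CPM in WT and 1.49, 2.64 and 2.49 CPM in KO. In Hes5-positive cells, of the 9 radial glia markers that the gate does not use Hes1, Pax6 and Vim were higher and Slc1a3 lower, and all 4 glial progenitor markers (Olig1, Olig2, Pdgfra and Egfr) fell, 547, 451 and 465 CPM in WT and 219.9, 165 and 218 CPM in KO summed. Over all cells the 6 intermediate progenitor markers were all called higher, with 257, 251 and 257 CPM in WT and 409, 402 and 434 CPM in KO summed, alongside the larger share of Eomes-positive cells. The part of these shifts in the members' changes was not tested.

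Other genes of the pathway were read from the same fits. Of 56 other replication genes 37 were higher and 0 lower in Dlx-positive cells (median 0.46), 20 and 0 over all cells (0.18), 9 and 0 of 55 in Hes5-positive cells (0.25) and 1 and 4 in Eomes-positive cells (-0.25). The shares of all genes called were 11.3% and 12.1%, 12% and 12.5%, 5.76% and 6.5%, and 7.96% and 8.26% in the same order, so in the Eomes gate neither count is above them. Dut, which removes dUTP, rose in the Dlx gate (log2 fold change 0.52, SE 0.07, adjusted p = 2.70e-04) and fell in the Eomes gate (log2 fold change -0.44, SE 0.14, adjusted p = 0.0405). Rfc3, a further clamp loader subunit, fell in the Eomes gate (-0.41, adjusted p = 0.00229) with 0.08 in the Dlx gate. Orc6 of the origin recognition complex rose in Dlx-positive cells (0.28), while the maintenance methyltransferase Dnmt1 (0.25) and the chaperone Asf1a (0.21) stayed under the fold limit. Of 20 mitosis genes 16 were higher in Dlx-positive cells (median 0.46), 15 over all cells (0.42) and 9 in Hes5-positive cells (0.58), beside the same shares of all genes, and 1 (Ckap2l) was lower in Eomes-positive cells (-0.43), which is not above the share of all genes.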

How the data were processed

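Single cells of E16.5 cortex from 10 mouse embryos were profiled with 10x 3′ version 3 chemistry. The authors aligned the reads and deposited UMI counts per gene and cell; per the file headers and labels this was Cell Ranger 6.0.2 with the mm10 genome, while the methods name an earlier release. The deposited counts were used as whole numbers without normalization. Groups came from the genotype labels. Cells were kept with 1000 or more UMIs of which no more than 10% were mitochondrial. No doublet caller was run, and the 5% of cells with the most UMIs were left out as an alternative.

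UMIs were summed per embryo and population and tested with edgeR 4.0.16 in R 4.3.3 (filterByExpr, TMM, quasi-likelihood F-test, 10 embryos in 1 fit, Benjamini-Hochberg over all genes tested). Calls needed an adjusted p below 0.05 and a log2 fold change exceeding 0.25 in size. DESeq2 1.42.0 was an alternative. Fits were tested on simulated data. Cell shares were compared with the exact permutation test. The litter of each embryo is not given, and p-values measure the spread between these embryos. UMIs of genes in the antisense orientation are not counted by this pipeline. Counting error limits the Hes5 gate most, at 67 to 152 cells per embryo.

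Named genes were, per role, the 2 members with the highest mean CPM, the 5 with the largest change over all cells and the 2 in each gate, and the 5 most abundant other replication genes. Others are named because a count was short, after their values were seen. The members and lists were chosen with earlier results of these data known. Alternatives were another test, normalization, filter, block, prefix covariate, depth, mitochondrial limit, gates and leaving out each embryo. Fits over cells with Mki67 or without Neurod6 and the fit of genotype by gate were chosen after seeing the data. The further gene that the Dlx gate asks for and 1 excitatory neuron marker are not reported here and were left out of the marker lists. Promoters are from RefSeq (GRCm38.p6).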

Additional observations from a re-analysis of the deposited data

Results flagged for a closer look

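Usp1 in Eomes-positive cells had one Het embryo far from the others. Het replicate 1 held 88.8 CPM and the other Het embryos 72.0, 73.2 and 72.5 CPM, so the gap was 0.926 of the whole range, over Dixon's critical value for 4 samples. It was 1 of 87 such values examined, and chance gives about 1 in 20.

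The change of the members in KO vs WT differed between gates by a test of the difference itself (edgeR quasi-likelihood test, genotype by gate with the embryo as block). In Dlx-positive against Eomes-positive cells 34 members differed, all with the log2 fold change more positive in Dlx-positive cells, beside 3.53% of all genes in that direction. When 1 embryo was left out 19 to 35 members differed, and the share of all genes in those fits is not given here. In Hes5-positive against Eomes-positive cells 12 members differed, all with the log2 fold change more positive in Hes5-positive cells, beside 2.04% of all genes in that direction.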

How the results depend on the processing

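Directions of every S-phase level, S-phase-high share and Eomes or Dlx cell share held in KO vs WT under each alternative run on these gates, but among Hes5-positive cells with Mki67 the level was 35.1 to 41.2 in WT and 33.6 to 38.7 in KO. Of 50 calls on single named genes 0 reversed and 7 held under all. The prefix as a covariate ended 36 of these 50. Most counts of members called below stand without the share of all genes called in that setting, which can move too. A moved count is therefore not a result about the members alone. Differences in cell share and S-phase-high cells are in percentage points, and the split is the part of the whole-tissue difference in level that the 3 gates gave. All other cells are left out of it unless named. With the library prefix as a covariate, members called numbered 8 over all cells for KO vs WT, 1 over all cells for Het vs WT, 2 in the Eomes gate for KO vs WT, 0 in the Hes5 gate for KO vs WT, 9 in the Dlx gate for KO vs WT and 0 in the Dlx gate for Het vs WT. With at most 5% mitochondrial UMIs, members called numbered 27 over all cells for KO vs WT, 13 over all cells for Het vs WT, 3 in the Eomes gate for KO vs WT, 7 in the Hes5 gate for KO vs WT, 17 in the Dlx gate for Het vs WT and 1 in the Dlx gate for KO vs Het. There levels differed by 2.32 over all cells for KO vs WT, 1.20 over all cells for Het vs WT and 5.56 in the Dlx gate for Het vs WT. S-phase-high cells there differed by 3.78 over all cells for KO vs WT, 1.45 over all cells for Het vs WT, -2.15 in the Eomes gate for KO vs WT, 16.9 in the Dlx gate for KO vs WT and 7.86 in the Dlx gate for Het vs WT. Cell shares there differed by 0.0678 in the Hes5 gate for Het vs WT. There the split gave 1.55 from cell share in KO vs WT and 0.942 from level in KO vs WT. With the replicate block, members called numbered 10 over all cells for Het vs WT, 1 in the Eomes gate for Het vs WT, 2 in the Eomes gate for KO vs Het, 7 in the Hes5 gate for KO vs WT and 17 in the Dlx gate for Het vs WT. With only the 2 groups compared in the fit, members called numbered 1 over all cells for Het vs WT and 7 in the Hes5 gate for KO vs WT. With at least 3000 UMIs, members called numbered 3 over all cells for Het vs WT. S-phase-high cells there differed by 2.31 over all cells for KO vs WT. Cell shares there differed by -0.0496 in the Hes5 gate for KO vs WT. In cells without a Neurod6 UMI, members called numbered 1 in the Eomes gate for KO vs WT, 1 in the Hes5 gate for KO vs WT, 0 in the Dlx gate for Het vs WT and 1 in the Dlx gate for KO vs Het. In cells with a Mki67 UMI, members called numbered 1 in the Eomes gate for KO vs WT, 0 in the Hes5 gate for KO vs WT, 4 in the Dlx gate for KO vs WT, 0 in the Dlx gate for Het vs WT and 0 in the Dlx gate for KO vs Het. Without a filter on low counts, members called numbered 13 in the Hes5 gate for KO vs WT, 1 in the Hes5 gate for Het vs WT, 1 in the Hes5 gate for KO vs Het, 20 in the Dlx gate for Het vs WT and 11 in the Dlx gate for KO vs Het. With stricter gates, members called numbered 0 in the Hes5 gate for KO vs WT, 3 in the Dlx gate for Het vs WT and 0 in the Dlx gate for KO vs Het. There levels differed by 5.71 in the Dlx gate for Het vs WT. S-phase-high cells there differed by -7.14 in the Eomes gate for KO vs WT and 7.35 in the Dlx gate for Het vs WT. Cell shares there differed by -0.143 in the Hes5 gate for KO vs WT. There the split gave 0.178 from level in KO vs WT. Without the 5% of cells with the most UMIs, members called numbered 1 in the Hes5 gate for KO vs Het. By DESeq2, members called numbered 5 in the Dlx gate for KO vs Het. Within the libraries of 1 prefix, members called numbered 4 in the Dlx gate for KO vs Het. In cells thinned to 5000 UMIs, S-phase-high cells differed by 2.52 over all cells for KO vs WT and 1.03 over all cells for Het vs WT. Cell shares there differed by -0.182 in the Hes5 gate for KO vs WT. There the split gave 0.704 from cell share in KO vs WT. With all other cells counted the parts were 0.359 from cell share and 0.883 from level. With the 95th percentile as limit, S-phase-high cells differed by 0.0898 over all cells for KO vs WT, -1.20 over all cells for Het vs WT, -7.76 in the Eomes gate for KO vs WT, 10.5 in the Dlx gate for KO vs WT and 2.09 in the Dlx gate for Het vs WT. With the highest percentile tried as limit, S-phase-high cells differed by 0.969 over all cells for Het vs WT, 4.64 in the Hes5 gate for KO vs WT and 9.75 in the Dlx gate for KO vs WT. Without the 5 members with the most UMIs, the split gave 0.702 from cell share in KO vs WT. The differences in the share of Hes5-positive cells (main values 0.0108 in KO vs WT and -0.148 in Het vs WT) changed sign where printed above. The Mki67 and Neurod6 settings were chosen after seeing the data, and the cause of each shift was not tested beyond the smaller number of cells or genes that a setting leaves. Deviations of same-numbered embryos correlated at -0.30 to 0.12, too few embryos to decide on pairing. Het alone has a replicate 4, so the replicate block drops it and cannot tell genotype from prefix in Het vs WT. There Het vs WT called 5.11% of all genes higher over all cells (main 1.58%) and 3.72% (0.99%) in the Dlx gate. KO vs WT gave 14 members over all cells, 17 in the Eomes and 35 in the Dlx gate. When 1 embryo was left out in turn, members called numbered 13 to 16 over all cells for KO vs WT, 0 to 9 over all cells for Het vs WT, 0 to 4 over all cells for KO vs Het, 3 to 16 in the Eomes gate for KO vs WT, 1 to 7 in the Hes5 gate for KO vs WT, 27 to 35 in the Dlx gate for KO vs WT, 0 to 16 in the Dlx gate for Het vs WT, 1 to 3 in the Dlx gate for KO vs Het and 19 to 35 for the gate difference (Dlx minus Eomes). In these fits levels differed by 1.16 to 1.51 over all cells for KO vs WT, 0.346 to 0.822 over all cells for Het vs WT, -4.53 to -2.73 in the Eomes gate for KO vs WT, -2.72 to -0.915 in the Eomes gate for Het vs WT, 4.78 to 8.97 in the Hes5 gate for KO vs WT, -0.0335 to 4.28 in the Hes5 gate for Het vs WT, 6.63 to 9.48 in the Dlx gate for KO vs WT and 2.65 to 4.66 in the Dlx gate for Het vs WT. S-phase-high cells in these fits differed by 1.35 to 1.69 over all cells for KO vs WT, -0.509 to 0.485 over all cells for Het vs WT, -6.44 to -4.47 in the Eomes gate for KO vs WT, -4.05 to -1.64 in the Eomes gate for Het vs WT, 13.2 to 20.3 in the Hes5 gate for KO vs WT, -1.03 to 6.72 in the Hes5 gate for Het vs WT, 11.7 to 14.8 in the Dlx gate for KO vs WT and 2.97 to 5.96 in the Dlx gate for Het vs WT. Cell shares in these fits differed by 2.99 to 3.85 in the Eomes gate for KO vs WT, 1.61 to 2.43 in the Eomes gate for Het vs WT, -0.145 to 0.219 in the Hes5 gate for KO vs WT, -0.304 to 0.0600 in the Hes5 gate for Het vs WT, 1.48 to 2.37 in the Dlx gate for KO vs WT and 0.971 to 1.91 in the Dlx gate for Het vs WT. In these fits the split gave 0.910 to 1.28 from cell share in KO vs WT and 0.419 to 0.688 from level in KO vs WT. With all other cells counted the parts were 0.483 to 0.715 from cell share and 0.516 to 0.837 from level.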

Other observations

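S-phase-high cells outside the 3 gates differed in depth between library prefixes. Their median number of UMIs was 3298, 3536 and 3869 in WT, 7964, 7370.5, 8685 and 4424 in Het and 9364, 10391 and 7352 in KO, against 10917 to 17827 for cells below the limit. Among the Het embryos, which share a genotype, replicate 4 with the prefix of WT lay nearest to WT, though it is 1 embryo. WT and KO share no prefix, so between them genotype and prefix cannot be told apart. The part of this depth in the values that follow was not tested. Their share of the cells outside the gates was 5.98, 5.59 and 6.14% in WT, 4.49, 4.04, 4.61 and 6.24% in Het and 4.94, 5.01 and 5.79% in KO, with overlap, while the level within them was 31.6, 36.1 and 32.7 in WT, 38.3, 38.8, 42.3 and 40.3 in Het and 42.4, 44.5 and 39.5 in KO, and neither Het nor KO overlapped WT. S-phase-high cells outside the gates made up 59.1, 51.0 and 59.8% in WT and 39.3, 39.1 and 42.6% in KO of all S-phase-high cells. In neurons the share over the limit was 1.64, 1.29 and 1.76% in WT, 0.910, 0.599, 0.720 and 1.25% in Het and 0.506, 0.662 and 0.954% in KO. The 4 embryos of the prefix shared by WT and Het replicate 4 were all above the 6 of the other prefix.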
